A study of Caenorhabditis elegans with 2 samples.

Results

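The forkhead transcription factor genes described here are 10 genes of Caenorhabditis elegans (fkh-8, fkh-2, fkh-7, fkh-9, fkh-10, pha-4, unc-130, let-381, lin-31 and pes-1), taken by name out of 19973 nuclear protein-coding genes. Each was examined for peaks whose summit, the position of highest signal, lay from 5000 bp upstream of the gene's 5′ end to its 3′ end, in chromatin immunoprecipitation with sequencing (ChIP-seq) of the forkhead protein FKH-8 itself. RefSeq product names of 8 of the 10 name a forkhead protein, though fkh-8 and pes-1 share the name forkhead box protein pes-1. The other two, pha-4 and lin-31, carry names that do not state the family, and both are known forkhead genes.

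The worms formed 1 group with 2 biological replicates. They belonged to strain OP652, which has the unc-119 allele tm4063 on chromosome III and the transgene wgIs652, and the labels describe the tag on FKH-8 as a C-terminal fusion of GFP and FLAG, stably expressed. Larvae of mixed sex in the first larval stage (L1) were collected 6 hours after synchronization by starvation following bleaching, and the immunoprecipitation used an antibody against GFP per the description, while the antibody field names fkh-8. Whole animals were used, so the tissue in which a peak arose cannot be told, and there was no second condition, so nothing was tested between groups. The control is not analysed here.

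Forkhead proteins bind DNA through a winged-helix domain, and members of the family recognise closely related sequences built around the core TAAACA. FKH-8 is known to act on genes of cilia in this worm's sensory neurons, alongside the RFX factor DAF-19. Forkhead genes are known in several animals to act on one another in developmental cascades. The peak lists were searched at the family's own genes, the gene that encodes FKH-8 among them.

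The 4 peak lists used were on the ce11 build, and positions are given 1-based. Of these, the list of replicate 1 held 19354 peaks, that of replicate 2 held 21452, and the list from pooled replicates held 17956, background regions included. The last list held 4963 reproducible peaks, kept by the authors after scoring how well peaks recurred between replicates (irreproducible discovery rate), and these coincided with the top 4963 of the pooled list by signal. Signal is the authors' deposited value of unstated scaling and is read here only within a list, where rank 1 is the highest. Reproducible peaks had signals from 94.9 to 2102 with a median of 164. The read depth of the libraries is unknown.

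Tagged FKH-8 was recovered reproducibly at 3 of the 10 genes: fkh-7 held 5 summits, fkh-9 held 1 and fkh-10 held 1. The remaining 7 held none, against 69.6% of coding genes. Over all coding genes 30.4% held at least 1 reproducible summit by the same rule, so the share of forkhead genes was near that of genes in general. When the 4963 peaks of highest signal in each replicate's own list (its best peaks) were used, replicate 1 gave 3 genes, where 30.1% of coding genes held one, and replicate 2 gave 2, where 30.2% did. The mean was 2.5 ± 0.707 (SD, n = 2). The 7 summits amounted to 0.627 per 10 kb of window, against 0.523 for all coding genes, where a summit counts for every gene whose window holds it. Without fkh-7, whose window of 30695 bp was the longest, the other nine genes had 0.247 per 10 kb.

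**Figure D1:**
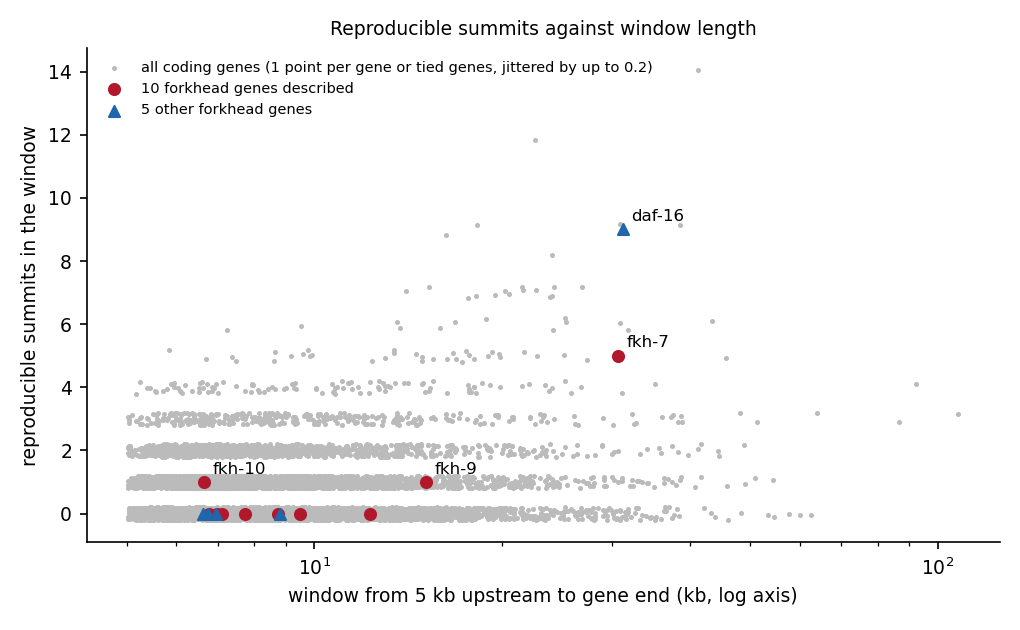
Number of reproducible summits (vertical axis) against the length of the window from 5 kb upstream to the gene end (horizontal log axis, kb) for all coding genes in grey, the 10 forkhead genes in red and 5 other forkhead genes in blue. fkh-7 with 5 summits and daf-16 with 9 stand high at long windows, while 7 of the 10 genes lie at 0.

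None of the 7 summits lay in a promoter window, defined as 1000 bp upstream to 200 bp downstream of the gene's outermost 5′ end, where 13.8% of coding genes held one. Of the 10 genes, 2 (fkh-7 and fkh-9) held a summit in an intron beyond that window, against 3.99% of coding genes. The windows of these 2 from 5000 bp upstream to the gene end, 30695 bp and 15117 bp, were the longest of the 10. The median over all coding genes was 7.03 kb, and the share of 3.99% was not matched for length. A summit over 1000 and up to 5000 bp upstream, called distal here, was found at 2 (fkh-7 and fkh-10), against 17.5% of coding genes. No summit at these genes lay in an exon, where 1.02% of coding genes held one beyond the promoter window. All 7 summits fell outside the promoter windows and bodies of other coding genes.

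The gene with the most summits was fkh-7 (WBGene00001439, chrIV:5584684-5610378, plus strand), which spans 25695 bp and has 4 annotated 5′ ends of coding transcripts. Only 0.355% of coding genes held 5 or more reproducible summits in their windows. Per length its 1.63 summits per 10 kb were less unusual, since 11.5% of coding genes had as many or more. No function is stated for it in the files, and the RefSeq product is named only as a protein with the fork-head domain.

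The highest fkh-7 summit lay 19899 bp downstream of the outermost 5′ end, in intron 4 of the 9 introns of the longest transcript (peak chrIV:5604375-5604790). It had a signal of 372 and rank 657 of 4963 in the reproducible list. In the replicates' own lists it had 167 (rank 775) in replicate 1 and 199 (rank 609) in replicate 2. The summit thus stood 2876 bp downstream of one internal 5′ end of fkh-7 and 1647 bp upstream of the next. The pair of upstream summits were nearly as high. The one 3895 bp upstream had a signal of 352 (rank 745), with 181 in replicate 1 and 172 in replicate 2, and its peak at chrIV:5580692-5580819 was 128 bp wide, where 85.8% of reproducible peaks were 416 bp wide. The one 2305 bp upstream had a signal of 322 (rank 864) and was rank 918 in each replicate, with 153 in replicate 1 and 162 in replicate 2. The replicates differed in which summit was highest: the one 3895 bp upstream in replicate 1, and the one in intron 4 in replicate 2.

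That summit 2305 bp upstream of fkh-7 also lay 117 bp upstream of the 5′ end of linc-50, a long intergenic non-coding RNA gene on the opposite strand (chrIV:5582041-5582262). A peak there can belong to either gene by position, and these lists do not separate them. The remaining fkh-7 summits were lower. In intron 6, the summit 22907 bp downstream had a signal of 197 (rank 1916), with 106 in replicate 1 and 84.5 in replicate 2. It lay 772 bp upstream of an internal 5′ end of fkh-7, and so inside a promoter window if any transcript start is accepted. By that wider rule 1 of the 10 genes had a promoter summit, against 15% of coding genes. The summit in the first intron, 11081 bp downstream of the 5′ end, was the lowest, with a signal of 139 (rank 3087), 77.7 in replicate 1 and 59.3 in replicate 2.

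**Figure D2:**
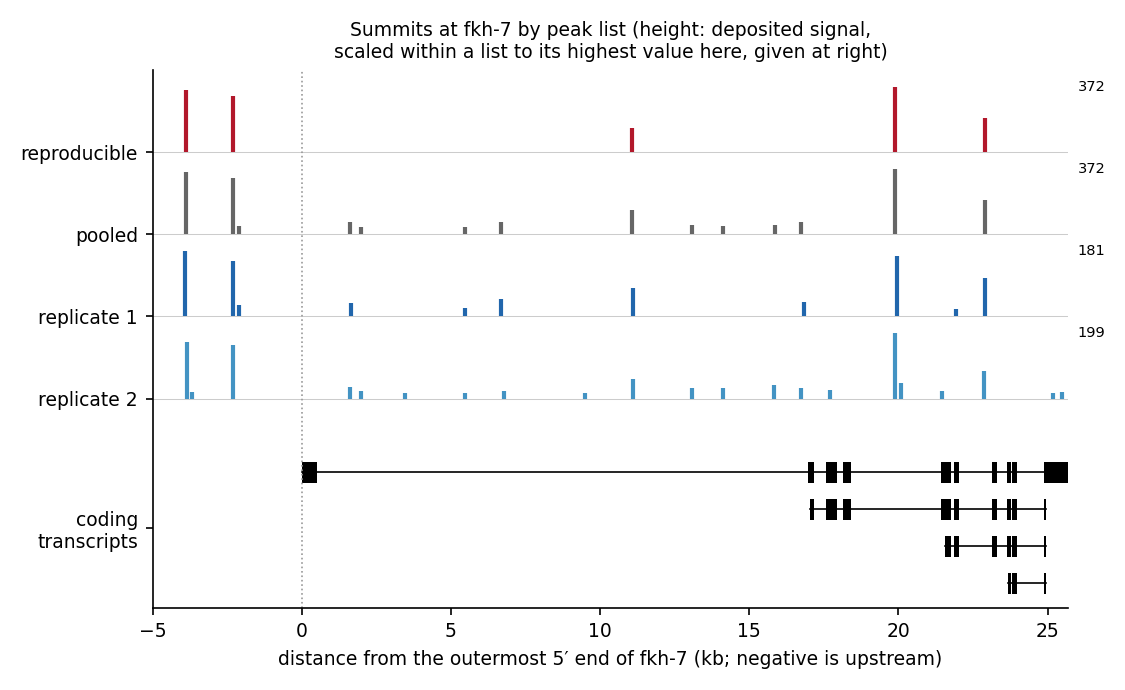
Summits at fkh-7 by distance from its outermost 5′ end (horizontal axis, kb), with 1 row per list and line height giving the deposited signal scaled within a list to the value at the right, above 1 coding transcript for each distinct 5′ end (boxes are exons). The 5 reproducible summits recur in both replicates, which largely follows from their high signal in the pooled replicates. The low lines between them fell short of the reproducible cutoff, so only the lists that include background regions hold them.

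All 5 fkh-7 summits were among the best peaks of both replicates, and the replicate summits lay within 48 bp of the reproducible ones. The reproducible peaks coincided with the 4963 highest of the pooled list, which was made from both replicates. Recurrence, here and at the other genes, is therefore largely built in, though a single peak can still rank low in 1 replicate. Below the reproducible cutoff the pooled list held 9 further summits in this window, for 14 in all. The highest of these, 16725 bp downstream, had a signal of 73.0 and rank 6775, well under the lowest reproducible signal of 94.9. The replicate lists held 11 summits in replicate 1 and 21 in replicate 2.

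Sequence around 5 of the summits is shown to set those with forkhead-type sequence beside those without. Each run is the ce11 genome from RefSeq with 100 bases on each side of the summit, 5′ to 3′ on the strand of the gene. Capitals mark any of 8 forms on either strand. The forms are GTAAACA and every variant of it that starts with A for G, has C for the T, or has T for the C, alone or together, and matches may overlap. Capitals also mark GACGC on either strand, a core described for some other forkhead proteins.
fkh-7 summit in intron 4, chrIV:5604483-5604683, plus strand: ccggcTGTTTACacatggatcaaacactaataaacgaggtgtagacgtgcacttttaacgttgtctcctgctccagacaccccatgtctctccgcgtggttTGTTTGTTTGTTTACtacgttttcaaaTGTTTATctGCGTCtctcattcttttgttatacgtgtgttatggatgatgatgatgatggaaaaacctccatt
fkh-7 summit 3895 bp upstream, chrIV:5580689-5580889, plus strand: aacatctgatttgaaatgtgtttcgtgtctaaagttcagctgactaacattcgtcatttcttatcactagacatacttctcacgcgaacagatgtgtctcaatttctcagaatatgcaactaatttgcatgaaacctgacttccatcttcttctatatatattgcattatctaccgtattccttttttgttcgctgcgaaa
fkh-7 summit 2305 bp upstream, chrIV:5582279-5582479, plus strand: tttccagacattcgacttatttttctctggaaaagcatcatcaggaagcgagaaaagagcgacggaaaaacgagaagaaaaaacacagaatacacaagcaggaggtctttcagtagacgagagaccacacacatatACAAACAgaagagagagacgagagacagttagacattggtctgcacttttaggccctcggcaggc
fkh-7 summit in intron 6, chrIV:5607491-5607691, plus strand: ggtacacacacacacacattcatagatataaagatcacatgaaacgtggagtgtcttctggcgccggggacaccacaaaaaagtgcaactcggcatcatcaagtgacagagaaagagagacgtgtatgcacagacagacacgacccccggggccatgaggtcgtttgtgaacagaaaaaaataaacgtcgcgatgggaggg
fkh-9 summit in intron 1, chrX:3825921-3826121, minus strand: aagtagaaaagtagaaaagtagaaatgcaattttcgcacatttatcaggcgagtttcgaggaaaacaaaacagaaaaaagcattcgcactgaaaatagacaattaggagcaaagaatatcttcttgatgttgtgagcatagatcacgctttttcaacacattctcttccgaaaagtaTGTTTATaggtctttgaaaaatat

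The intron 4 summit of fkh-7 held 5 matches to the forkhead forms, and they were opposite to the gene in orientation. Their centres lay 92 bp upstream of the summit and 4, 8, 12 and 31 bp downstream of it, and of the 3 nearest, each overlaps its neighbour in the repeated run. It also held a GACGC centred 39 bp downstream. The summit 3895 bp upstream and the one in intron 6 held no match to any of the forms. The summits 2305 bp upstream of fkh-7, in its first intron and in fkh-9 held 1 match each, centred 39, 25 and 80 bp from the summit. At fkh-10, whose sequence is not shown, 1 match was centred 9 bp from the summit and 1 GACGC 80 bp from it.

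In all, 5 of the 7 summits had a forkhead form within 100 bp, as did 31.3% of all 4963 reproducible summits. GACGC was found at 2 of the 7, against 30.7% of all, and an X-box, the RFX site, at none of them, against 3.49% of all. Within 50 bp of the summit, 4 of the 7 had a forkhead form, against 16.4% of all. Within 200 bp the forkhead count was 5 of the 7, against 55.1% of all, and GACGC was found at 5 of the 7, against 40.4% of all, so the shares lay closer together for the forkhead forms in the wider window. A match describes the letters only and does not show a bound site. The 7 windows had GC contents from 30.8% at fkh-10 to 49.3% in intron 6 of fkh-7. The median over all reproducible summits was 40.8%. Of the 5 with a forkhead form, those at fkh-10, in the first intron of fkh-7 (31.3%) and in fkh-9 (32.8%) lay below that median. Those in intron 4 of fkh-7 (41.3%) and 2305 bp upstream of it (44.3%) lay above. The forms are rich in A and T, and the shares of all summits were not matched for GC content.

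**Figure D3:**
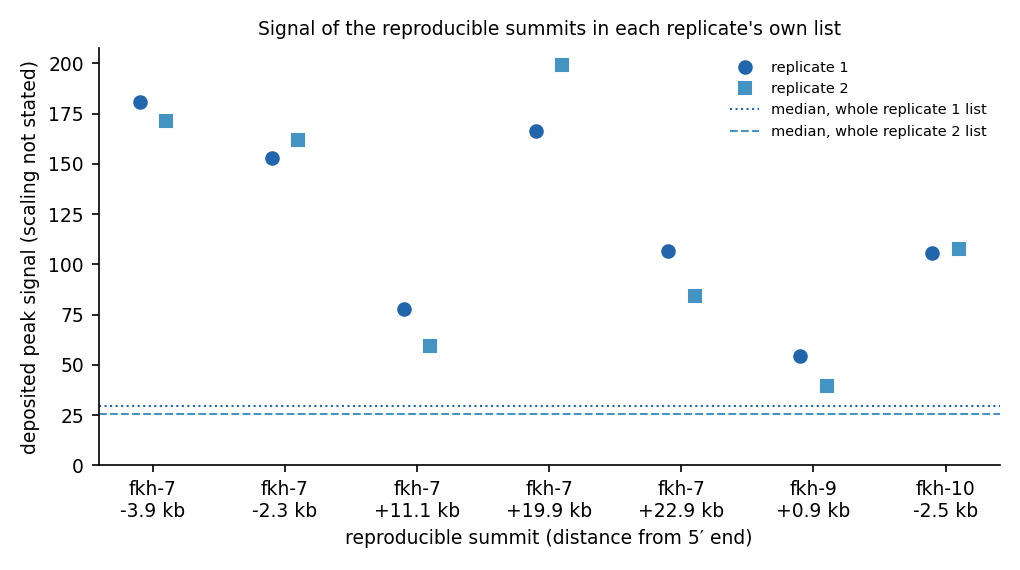
Deposited signal (vertical axis, scaling not stated) of the 7 reproducible summits in each replicate's own list, circles for replicate 1 and squares for replicate 2, with dotted and dashed lines at the median signal of each whole list. All 14 points lie above their list's median, 29.5 for replicate 1 and 25.8 for replicate 2, and fkh-9 has the lowest points. The 7 summits come from the peaks of highest pooled signal, so lying above these medians largely follows from how they were selected.

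fkh-9 encodes a factor with known neuronal roles, including axon regeneration downstream of insulin signalling (WBGene00001441, chrX:3816847-3826963, minus strand). Its reproducible summit lay 942 bp downstream of the 5′ end in the first intron, which is 6285 bp long (peak chrX:3825813-3826228). It was one of the weakest of the reproducible peaks, with a signal of 98.0 and rank 4800 of 4963. Replicate 1 gave 54.4 (rank 4281), within its best 4963 peaks, and replicate 2 gave 39.6 (rank 6394), outside them. Without replicate 1, fkh-9 therefore had no summit among the best peaks.

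A second fkh-9 summit in the same intron, 4349 bp downstream, fell just outside the reproducible set, with a pooled signal of 91.2 and rank 5202. The replicates ordered the pair differently. In replicate 1 this second summit had 41.1 (rank 6088) and was the lower of the pair, whereas in replicate 2 it had 47.6 (rank 5147) and was the higher. Weaker summits surrounded them: the pooled list held 7 in the fkh-9 window, replicate 1 held 7 and replicate 2 held 8. One pooled summit, 875 bp upstream with a signal of 53.7 (rank 9674), lay in the promoter window, so a list of 9926 pooled peaks gave fkh-9 a promoter summit. That entry had a deposited −log10 q-value of 0.485, where the highest in the pooled list was 3.91.

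**Figure D4:**
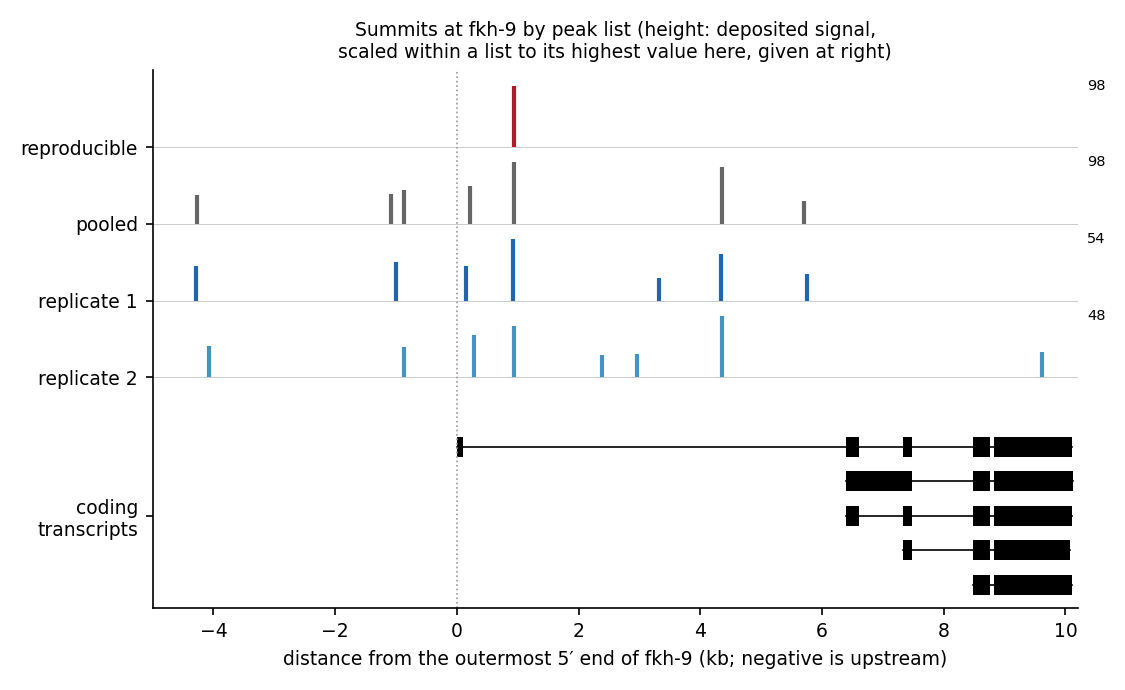
Summits at fkh-9 by distance from its outermost 5′ end (horizontal axis, kb), drawn as for fkh-7. The reproducible summit at 942 bp is the highest in the pooled list and in replicate 1, and the one near 4350 bp is the highest in replicate 2.

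The gene fkh-10 (WBGene00001442, chrI:10163475-10165132, minus strand) had 1 reproducible summit, 2501 bp upstream of its 5′ end (peak chrI:10167425-10167840). Its signal was 215 (rank 1688), with 106 (rank 1698) in replicate 1 and 108 (rank 1764) in replicate 2, and the replicate summits lay 2 bp from it. No other of the 7 summits recurred within so few bases in both replicates. The summit was nearer to sup-46, whose 3′ end is 2006 bp away, than to fkh-10, so a rule that gives each summit to its nearest coding gene left fkh-10 with none. Replicate 1 alone had 2 further low summits in the fkh-10 promoter window, with signals of 23.7 (rank 14160) and 22.9 (rank 15142), and neither recurred in replicate 2 or the pooled list.

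The remaining 7 genes held no reproducible summit, and the 4 of them with an entry in another list come first. Within its window pha-4 (WBGene00004013, chrV:20753052-20760317), the FoxA-type factor that specifies the pharynx, had only entries of low rank. These were a pooled summit of 37.7 (rank 16494 of 17956) 1627 bp downstream of the 5′ end and one of 18.0 (rank 18701 of 21452) in replicate 2. Replicate 1 had none there. Its nearest reproducible summit was 23963 bp from the 5′ end, and 80.4% of coding genes had one nearer.

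lin-31 (WBGene00003017, chrII:3982549-3987029), a vulval cell fate factor downstream of Ras and MAP kinase, had 2 summits in replicate 2, 21.1 (rank 14403) and 19.3 (rank 16655), and none in the other lists. let-381 (WBGene00002601, chrI:6320289-6324019), the FoxF-type factor of the postembryonic mesoderm, had 1 in replicate 1 at 20.5 (rank 18665). unc-130 (WBGene00006853, chrII:11281966-11283959), a FoxD-type factor of cell and axon guidance, had 1 in replicate 1 at 24.8 (rank 13016). Each of these entries was below the median signal of its list and was seen in a single replicate, so none of them repeated. The nearest reproducible summit was 7404 bp from the 5′ end of lin-31, 6129 bp from that of let-381 and 11634 bp from that of unc-130.

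pes-1 and fkh-2, which are known to act in overlapping ways in the embryo, had no summit in their windows in any list. The same was true of fkh-8. Those 3 genes of 10 compare with 19.4% of coding genes that lacked a summit in all 4 lists. In the pooled list, 4 of the 10 had at least 1 summit, against 64% of coding genes. The whole lists of the replicates each gave 5 of the 10, though not the same 5, against 68.2% of coding genes in replicate 1 and 70.6% in replicate 2. The nearest reproducible summit was 7994 bp from the 5′ end for pes-1 (WBGene00003976, chrIV:5002748-5005486) and 13283 bp for fkh-2 (WBGene00001434, chrX:3740207-3742323), a gene known to act in a ciliated olfactory neuron.

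The gene for the immunoprecipitated factor itself stood in one of the longest stretches without a summit. fkh-8 (WBGene00001440, chrII:6189623-6191393, minus strand) was flanked in the pooled list by summits 64789 bp beyond its 3′ end and 38408 bp beyond its 5′ end. The stretch between them was 105 kb, the fourth longest of 17950 in that list, where the median was 2.46 kb. Only 0.586% of coding genes had their 5′ end in a pooled stretch as long. That fkh-8 lies in a peak-free stretch was known when the gene was chosen, so these values are a description.

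In the reproducible list the fkh-8 stretch was 142 kb, with 41 of 4957 as long or longer, and 8.93% of coding genes started in one as long. It was 54.8 kb in replicate 1, with 42 of 19348 as long or longer, and 77.9 kb in replicate 2, with 6 of 21446. The corresponding shares of coding genes were 2.66% in replicate 1 and 0.631% in replicate 2. Among the 10 genes, fkh-2 had the next longest pooled stretch at 33.1 kb, and the shortest was at fkh-9, with 1.09 kb.

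**Figure D5:**
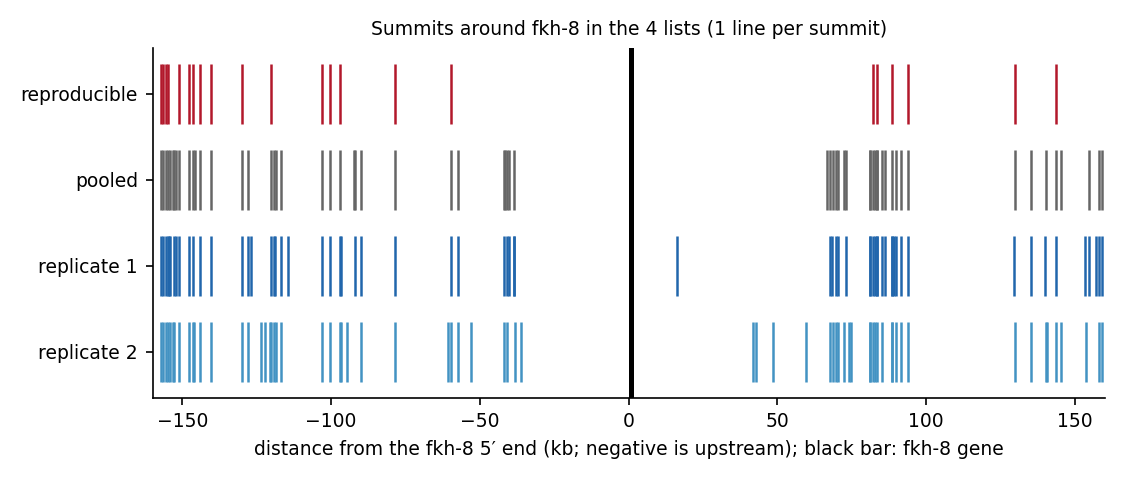
Positions of summits in the 4 lists by distance from the fkh-8 5′ end (horizontal axis, kb, negative is upstream), 1 line per summit, with the gene as a black bar. No list has a summit within 14 kb of the gene, and the nearest lines are 36.1 kb upstream in replicate 2 and 14.6 kb beyond the 3′ end in replicate 1.

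The edges of the stretch differed between replicates. Replicate 1 had a single summit inside the pooled stretch, 14555 bp beyond the fkh-8 3′ end and 505 bp from the gene F40H3.2, with a signal of 63.2 and rank 3471. That peak was within the best 4963 of replicate 1 but had no counterpart in replicate 2 or the pooled list. Replicate 2 had 6 summits between the edges, none nearer than 36149 bp to the gene. The highest of these, with a signal of 47.7 (rank 5128), lay beside the pooled summit that forms the edge beyond the 5′ end, and the other 5 had signals from 16.7 to 26.2.

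The pooled stretch at fkh-8 held the 5′ ends of 17 coding genes, or 16.2 per 100 kb, against 19.9 per 100 kb over the 6 nuclear chromosomes. The stretch is defined by having no pooled summit, so the near absence of summits in the promoter windows of these genes follows from how it was drawn: none of the 17 had a reproducible one, and 1 (rars-2, at its edge) had a pooled one. Over all coding genes a pooled summit lay in the promoter window of 29.8%, and nothing is read from the difference. Besides fkh-8 the stretch held cpb-2, mks-2, which encodes a protein of the ciliary transition zone, and daf-37, which encodes a pheromone receptor, the last pair named for their known roles once the list was seen. Its GC content was 34.9%, against 35.4% of the genome, and 29.0% of its bases were soft-masked in the RefSeq genome, against 35.7%. The strain carries a transgene with fkh-8 sequence, and the part of the transgene or of the control in this stretch was not tested.

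Of the 5 other forkhead genes, 1 held reproducible summits, where 30.4% of all coding genes did. That gene was daf-16 (chrI:10750498-10776703), the FoxO factor of insulin signalling, with 9 in its window. Over all coding genes 0.355% held 5 or more. Its promoter summit, 442 bp upstream, had a signal of 222 (rank 1621), with 108 in replicate 1 and 117 in replicate 2. The other 8 were intronic, and the highest of them, 19300 bp downstream, had 320 (rank 876), with rank 1411 in replicate 1 and 636 in replicate 2. All 9 were among the best peaks of replicate 1 and 7 of the 9 among those of replicate 2, which had 1 further best peak, 15267 bp downstream. Like fkh-7, daf-16 has a long window (31206 bp) and several transcript starts, 7 in its case. fkh-3, fkh-4, fkh-5 and fkh-6 (the last known for gonad development) held no reproducible summit, and the only pooled one among them was at fkh-5, with a signal of 43.5 (rank 13028 of 17956).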

How the data were processed

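Peaks were deposited by the authors as narrowPeak lists on ce11 and ce10 and, per the deposited file lists, were derived from each replicate's alignments, or both pooled, and a control. The ce11 lists were used, the ce10 lists were not. The deposited signal (column 7) has no stated scaling. The deposited −log10 q-values (column 9) shared a highest value within each list, so peaks were ranked by signal. Aligner, caller and cutoff are not given in the sources used here. The summit is column 2 plus column 10, written 1-based. Gene models came from Ensembl release 115 and sequence from RefSeq, both of the WBcel235 assembly, and peak ends were checked against its chromosome lengths. Counting used Python 3.11.15 and pandas 2.3.3, tested on simulated data. The design of 1 group with 2 replicates allowed no test, and counts are read beside the same count over all coding genes. The genes, lists and rules were chosen with earlier results of these data known, and all 10 genes are named whatever their values. Alternatives covered thresholds, replicates, windows and assignment. Read depth is unknown, so precision beyond the spread of the replicates cannot be given.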

Additional observations from a re-analysis of the deposited data

How the results depend on the processing

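The number of forkhead genes with a summit stayed between 2 and 4 under 9 alternatives. It was 2 without replicate 1 and 3 without replicate 2. The 2481 highest peaks dropped fkh-9, 2000 bp upstream or the nearest-gene rule dropped fkh-10, and 10000 bp upstream added lin-31. The number of summits at these genes was 15 with 9926 pooled peaks, 23 with every pooled peak and 4 from 2000 bp upstream, and 6 and 7 without replicate 1 and without replicate 2. The number of genes with a promoter summit, 0 in the reproducible list and without either replicate, was 1 with 9926 pooled peaks (21.3% of all coding genes), 1 with every pooled peak (29.8%) and 1 with any transcript's 5′ end (15%). The share of all coding genes with a summit was 18.4% with the 2481 highest peaks, 44.9% with 9926 pooled peaks, 64% with every pooled peak, 21.6% from 2000 bp upstream, 41.8% from 10000 bp upstream and 15% by the nearest gene, and 30.1 to 30.2% with 1 replicate left out. The fkh-8 stretch measured 54.8 to 77.9 kb in the whole lists of single replicates. These lists hold more peaks than the reproducible one, by construction. No paired analysis was possible because there is 1 group.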

Other observations

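The 3 pooled stretches longer than that of fkh-8 were 227.1 kb on chromosome V (chrV:2344120-2571196), 112.3 kb on II (chrII:1917770-2030041) and 108.4 kb on II (chrII:976716-1085088). They held the 5′ ends of 50, 21 and 29 coding genes, more than the 17 at fkh-8. Their soft-masked shares were 46.2%, 31.7% and 33.9%, each above the 29.0% at fkh-8. Among pooled stretches 5 to 10 by length the share lay on both sides of that value, from 16.9% (98.18 kb on V) to 70.4% (95.74 kb on I).

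RefSeq names 3 further genes as proteins with the fork-head domain that are in neither list of forkhead genes used here. C34B4.2 held 2 reproducible summits in its window, and K04C1.3 and T27A8.2 held 0, where 30.4% of all coding genes held at least 1. These 3 were picked by their product name after the values of the listed genes had been seen.

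The 5′ end of unc-119, named in the strain's genotype, lay in a pooled stretch of 6.76 kb, and its window held reproducible summits of signal 762 (rank 90) and 250 (rank 1353). The genotype implies that unc-119 is rescued in this strain, and the part of the transgene in these values was not tested.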
